A study of Mus musculus with 149 samples.

Results

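Lungs of BALB/c mice sensitized with ovalbumin (OVA) were compared with lungs of naive mice 6 h after a challenge with saline. The comparison used 16 of the 149 Affymetrix arrays of the study, chosen by their labels: all 8 of OVA-sensitized mice given saline and taken at 6 h, and all 8 of naive mice given saline and taken at 6 h. The study as a whole asked how a challenge with thymic stromal lymphopoietin (TSLP) acts on airway inflammation in naive and OVA-sensitized mice. No mouse of this comparison received TSLP, so by their labels the 2 groups differed in sensitization alone. All were of the balb/c background, and each array held total RNA of 1 animal's lung. The labels name neither the dose and schedule of OVA nor the sex and age of the mice, and say nothing of a sham treatment of naive mice. In 2 further pairs of groups the same sensitization difference was measured in other mice. At 24 h after saline these were OVA (n = 7) against naive (n = 8). At 6 h they were OVA (n = 8) against naive (n = 6), challenged by their labels with MSA in place of saline. The labels do not spell out MSA, and this challenge is called buffer below.

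OVA sensitization in BALB/c mice is a widely used model of allergic asthma. In it, T helper 2 cells and innate lymphoid cells release IL-4, IL-5 and IL-13. IL-13 acts through the transcription factor STAT6 to turn airway epithelial cells into mucus-secreting goblet cells and macrophages into the alternatively activated form, IL-5 supports eosinophils, and IL-4 drives the switch of B cells to IgE. Epithelial cytokines (IL-33, TSLP) and the chemokines of the eotaxin and Ccl17 families recruit and activate these cells.

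Values are RMA expression values on the log2 scale, on which a difference of 1 is a 2-fold difference. A gene was called where the adjusted p of the limma fit was under 0.05. Of 13494 genes, 1477 (10.9%) were called higher and 1699 (12.6%) lower in OVA lungs. Each count of list members called at 6 h after saline, given below, is to be read beside these shares. The rises were the larger changes: 177 genes rose over 2-fold and 38 over 4-fold, whereas 6 fell over 2-fold and 0 over 4-fold. In 160 genes (1.19%) every OVA array lay above every naive array, and in 62 (0.459%) every OVA array lay below. With the 2 groups fitted alone, 927 genes were called higher and 743 lower, and 1622 of these 1670 were among the 3176 of the fit over all 20 groups. The group means are the same in both fits, so the signs could not differ and only the estimate of spread changed. RMA values carry no detection calls, the number of arrays limits the precision, and in whole lung more cells of a type and more RNA per cell cannot be told apart.

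Before the genes, 3 facts on the libraries bear on what follows. The beta-actin 3' minus 5' difference, which rises with degraded RNA, was 2.45 ± 0.217 (SD, n = 8) in OVA lungs and 2.42 ± 0.512 (SD, n = 8) in naive lungs, a difference of 0.028 (SE 0.196, two-sided exact permutation test, p = 0.897). Naive replicate 6 stood apart, with a beta-actin difference of 3.42 and skeletal muscle RNA: Myh1, a fast muscle myosin, was at 12.94 in it, while the OVA arrays lay at or below 4.12 and so did the other 7 naive arrays. Without that array no gene list gained or lost more than 3 calls in either direction, and the larger moves are given with their lists. Over all genes the calls without it were 1626 higher and 2110 lower. On the first principal component, with 34.9% of the variance, the 8 OVA arrays lay between 0.65 (replicate 1) and 36.5 (replicate 3). The 8 naive arrays lay between -22.4 and -13.5, so on this component the groups did not overlap and the OVA arrays were the more spread out. Over all genes the median SD was 0.169 in OVA lungs and 0.184 in naive lungs. Among genes called higher it was 0.245 in OVA lungs and 0.220 in naive lungs, and among genes called lower 0.171 and 0.164.

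**Figure D1:**
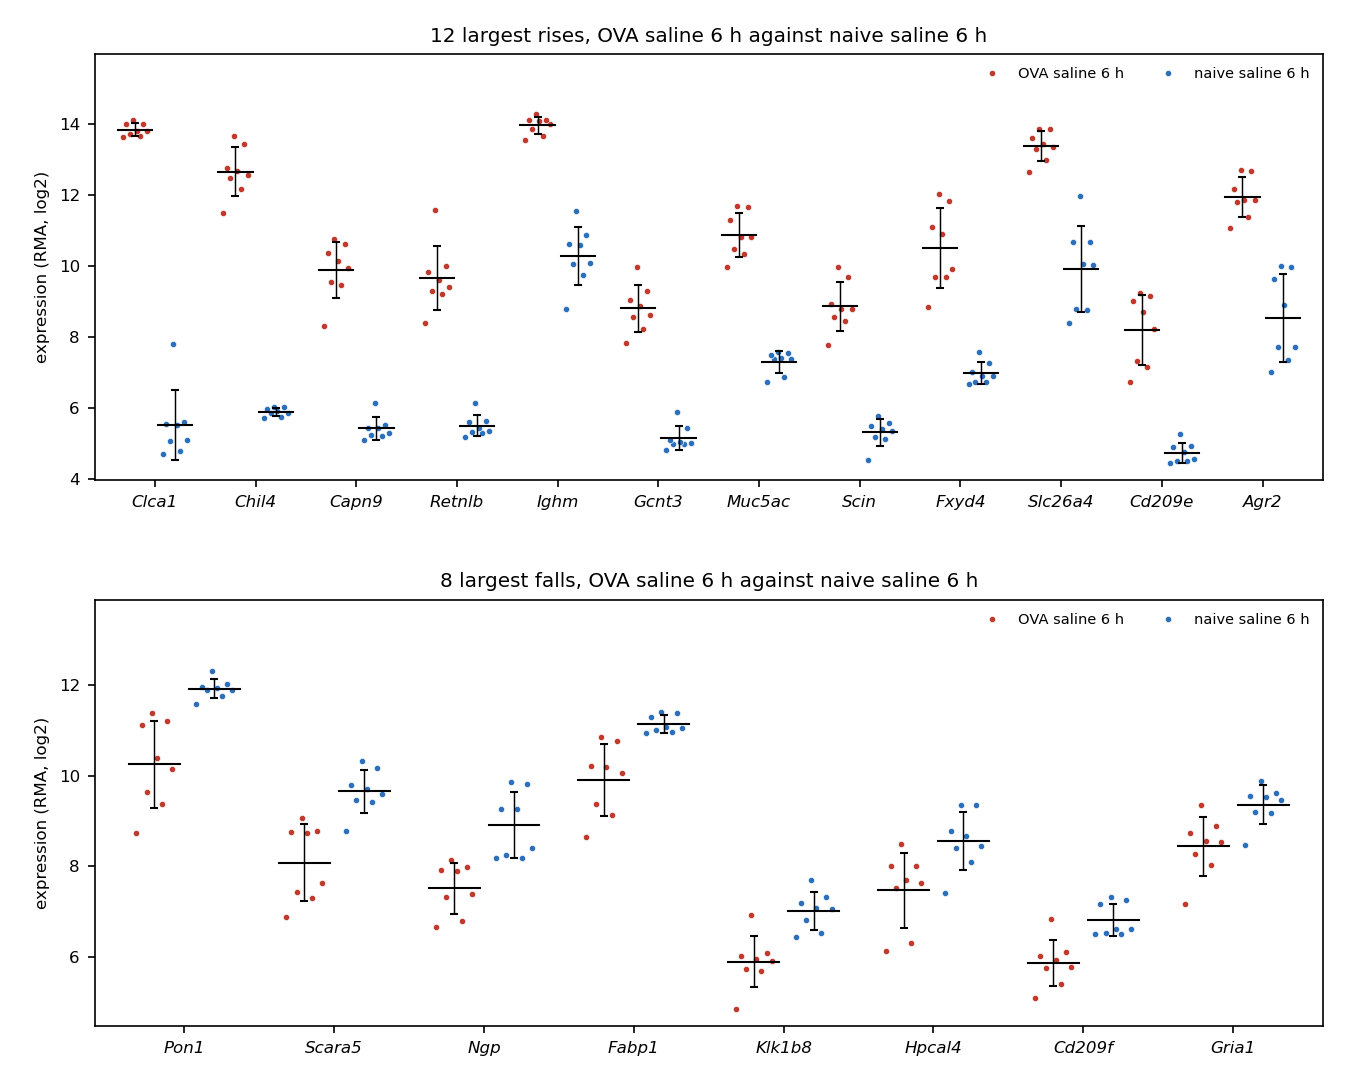
RMA expression (log2, vertical axis) of the 12 genes with the largest rises (top) and the 8 with the largest falls (bottom) in OVA saline 6 h arrays (red, left of each pair) and naive saline 6 h arrays (blue, right), 1 point per array, with mean and SD bars (n = 8 each). Predicted and unnamed genes and antibody variable and joining segments were left out of the ranking. In the 12 rises all OVA arrays lie above all naive arrays, while of the falls Pon1, Ngp and Fabp1 are separated in the same way.

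The promoters of 4 of the genes described below carry STAT-type palindromes and are shown for that reason, 300 bases each, mostly upstream of the gene's start and reaching 50 bases past it, 5′ to 3′ on the gene's strand (RefSeq, GRCm38.p6). Chil4 and Chil3 encode the chitinase-like proteins Ym2 and Ym1 and lie at chr3:106219430-106219729 (minus strand) and chr3:106167515-106167814 (minus strand). Capn9, a digestive tract calpain, is at chr8:124575861-124576160 (plus strand). Cd209e, a C-type lectin of the DC-SIGN family, is at chr8:3854237-3854536 (minus strand). Capitals mark the letters TTCNNNGAA in Chil4 and Chil3 and TTCNNNNGAA in Capn9 and Cd209e. Both are palindromes, so a match on one strand is a match on the other, and each form was counted whether or not it overlapped the other. The longer form is the one STAT6 is known to prefer.
Chil4: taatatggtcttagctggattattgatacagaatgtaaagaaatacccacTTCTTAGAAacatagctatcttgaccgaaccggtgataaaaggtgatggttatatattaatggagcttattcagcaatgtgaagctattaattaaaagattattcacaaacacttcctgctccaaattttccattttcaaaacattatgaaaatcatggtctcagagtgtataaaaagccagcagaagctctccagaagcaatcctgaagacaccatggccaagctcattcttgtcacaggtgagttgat
Chil3: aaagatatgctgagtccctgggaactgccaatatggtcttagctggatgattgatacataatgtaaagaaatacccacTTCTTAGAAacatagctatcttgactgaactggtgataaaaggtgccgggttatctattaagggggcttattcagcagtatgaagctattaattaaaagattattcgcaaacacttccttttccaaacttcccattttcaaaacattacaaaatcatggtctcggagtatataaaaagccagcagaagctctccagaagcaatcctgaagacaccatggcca
Capn9: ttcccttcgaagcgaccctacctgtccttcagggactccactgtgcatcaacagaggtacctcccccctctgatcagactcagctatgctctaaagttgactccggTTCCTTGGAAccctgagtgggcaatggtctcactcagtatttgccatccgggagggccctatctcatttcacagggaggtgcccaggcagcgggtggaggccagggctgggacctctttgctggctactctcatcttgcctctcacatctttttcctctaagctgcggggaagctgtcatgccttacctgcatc
Cd209e: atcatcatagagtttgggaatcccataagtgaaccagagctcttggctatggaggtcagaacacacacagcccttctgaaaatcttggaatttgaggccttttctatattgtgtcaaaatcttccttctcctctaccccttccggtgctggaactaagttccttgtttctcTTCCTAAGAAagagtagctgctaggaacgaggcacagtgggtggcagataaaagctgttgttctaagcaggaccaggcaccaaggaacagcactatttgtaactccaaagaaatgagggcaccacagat
The Chil4 and Chil3 windows were identical at 251 of 271 aligned bases (92.6%) and share the 9-base match TTCTTAGAA, which begins 200 bases before the start in Chil4 and 172 bases before it in Chil3. Among all 32851 promoter windows, 8.30% hold TTCNNNGAA and 6.95% hold TTCNNNNGAA. Windows were on hand for 7 of the 12 genes with the largest rises, of which 1 held the shorter and 2 the longer form, and for 6 of the 8 with the largest falls, of which 0 held either. A match describes the letters only.

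Goblet cell and mucus genes held the largest rises. All 16 measured members of the list rose, by a median of 3.14, where 10.9% of all genes rose and the median gene differed by -0.01, and in 15 of the 16 every OVA array lay above every naive array. The list was chosen with earlier results of these data known, so its count describes these genes and is no independent test. Clca1, a secreted regulator of mucus cell chloride channels, was at 13.63 to 14.11 (median 13.80) in OVA lungs, against 4.72 to 7.80 (median 5.32) in naive lungs. The OVA arrays lay close together, and even the highest naive array, replicate 2, was far below them. That was a difference of 8.31 (SE 0.62, adjusted p = 4.35e-22), and no fold is given because the naive level is low and was not shown to be above background. The gel-forming mucin Muc5ac was at 9.97 to 11.68 (median 10.82) in OVA lungs and at 6.73 to 7.59 (median 7.40) in naive lungs, a difference of 3.59 (SE 0.33, adjusted p = 8.46e-17). Muc5b, the mucin that the healthy airway also makes, was at 12.44 to 13.10 in OVA lungs and 8.78 to 11.68 in naive lungs, a difference of 2.14 (SE 0.30, adjusted p = 2.54e-08).

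The other members of the list cover the regulators, processing enzymes and transporters of the mucus cell. The transcription factors Spdef, which drives goblet cell differentiation, and Foxa3 were 1.45 (adjusted p = 8.66e-08) and 1.73 higher in OVA lungs, with SEs of 0.21 and 0.20. Agr2, a disulfide isomerase that mucin folding requires, was at 11.07 to 12.69 in OVA lungs, against a median of 8.31 and a lowest value of 7.01 in naive lungs (difference 3.40, SE 0.47). Gcnt3, a glycosyltransferase that branches mucin sugars, rose by 3.64 (SE 0.34). Fcgbp, a mucus-associated protein, rose by 2.88 (SE 0.25), and the ER stress sensor of mucous epithelia, Ern2, by 1.71 (SE 0.20). Slc26a4 (pendrin, an anion exchanger) was at 12.66 to 13.87 in OVA lungs and 8.39 to 11.96 in naive lungs, a difference of 3.46 (SE 0.35, adjusted p = 3.16e-14). Fxyd4, a regulator of the sodium pump, rose by 3.52 (SE 0.43) and Retnlb, a resistin-like goblet cell protein, by 4.16 (SE 0.49). Capn9 was at 8.31 to 10.76 in OVA lungs and 5.12 to 6.14 in naive lungs (difference 4.47, SE 0.35, adjusted p = 5.14e-21). Creb3l1, an ER-bound transcription factor, had the smallest rise, 0.34 (SE 0.09, adjusted p = 0.00297), and was the one member whose groups overlapped, with 5 of 8 OVA arrays above the highest naive array.

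**Figure D2:**
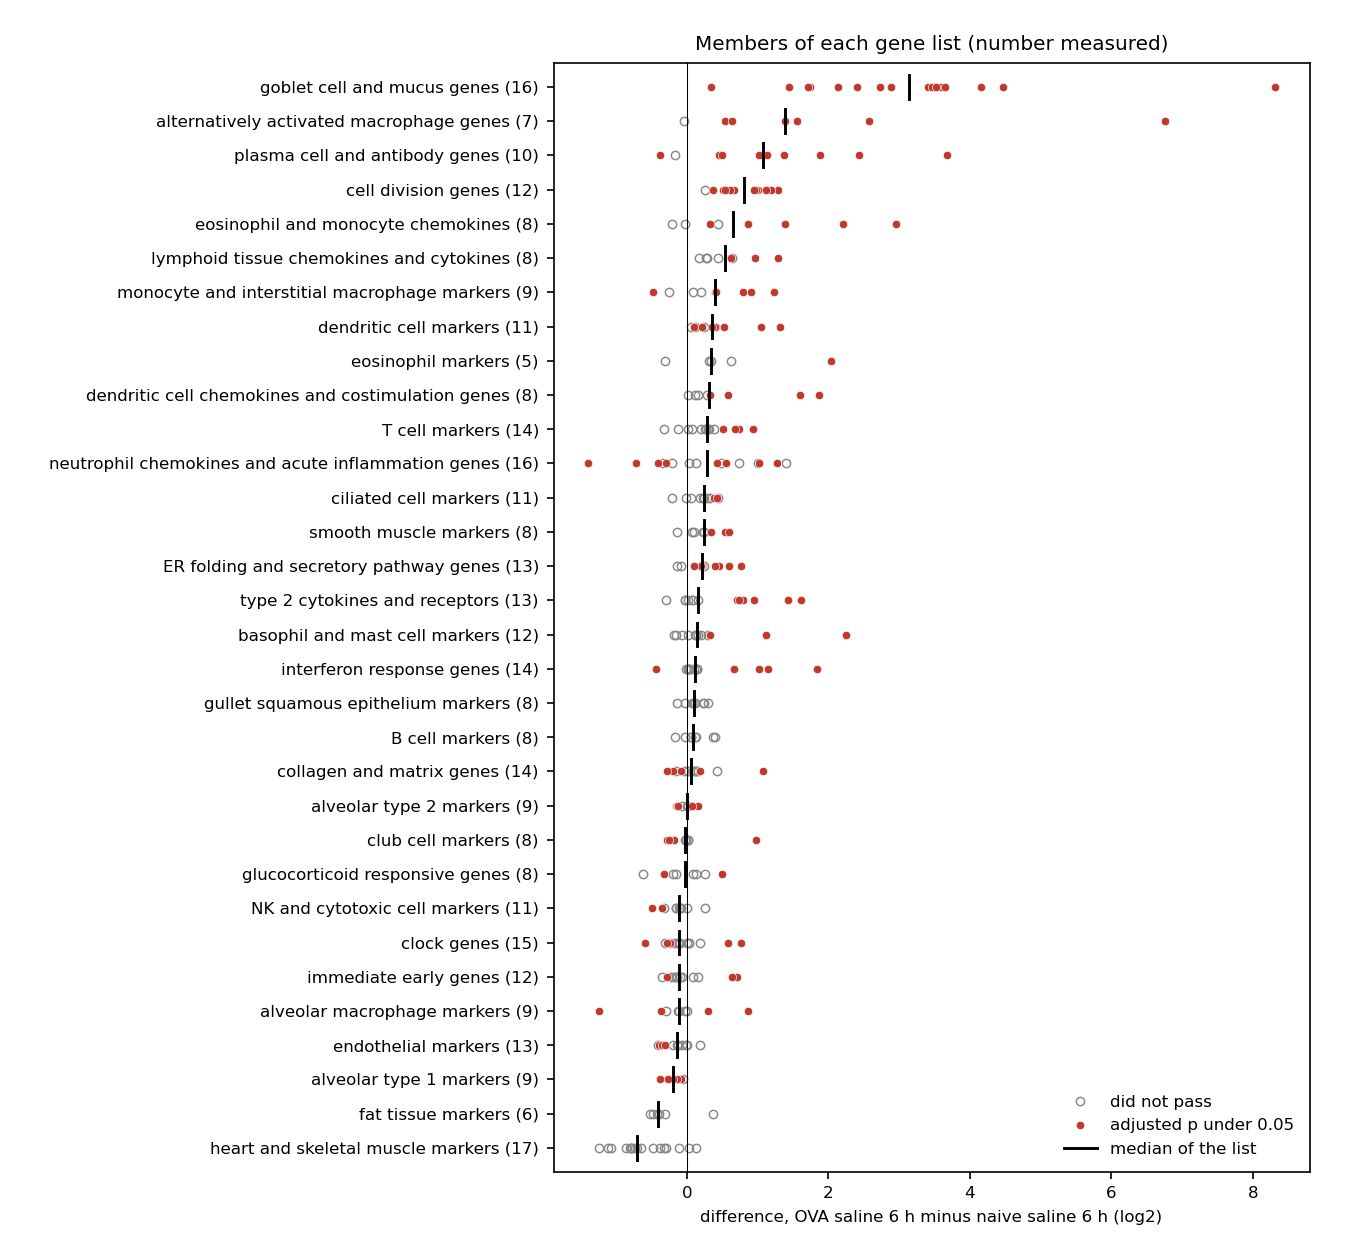
Difference between OVA saline 6 h and naive saline 6 h (log2, horizontal axis) of each measured member of the gene lists with at least 4 measured members, 1 row per list with its number of members, n = 8 arrays a group. Filled points passed an adjusted p under 0.05, open points did not, and the bar is the list's median. All 16 goblet cell genes lie right of 0, the alveolar type 1 markers lie left of it, and the heart and skeletal muscle markers lie mostly left with 0 of 17 called.

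Genes of alternatively activated macrophages rose in 6 of 7 measured members, with a median of 1.39. Chil4 was at 11.49 to 13.65 (median 12.62) in OVA lungs and at 5.73 to 6.04 (median 5.90) in naive lungs. Its naive arrays lay close together, its OVA arrays were spread more widely, and a broad gap separated the groups. The difference was 6.76 (SE 0.52, adjusted p = 1.39e-21), again with no fold since the naive level was low. Chil3, whose promoter is the near copy shown above, was at 13.73 to 14.14 (median 14.00) in OVA lungs and at 12.21 to 13.17 (median 12.52) in naive lungs, a difference of 1.39 (SE 0.12, adjusted p = 9.76e-18). The genes are close paralogs, so cross-hybridization between their probe sets was not tested, and the 2 levels are not set against each other. Mmp12, macrophage elastase, was at 9.73 to 12.31 in OVA lungs, against 7.77 to 9.87 in naive lungs (difference 2.57, SE 0.41, adjusted p = 8.87e-07), with 7 of 8 OVA arrays above the highest naive array. Pdcd1lg2, the ligand PD-L2, rose by 1.56 (SE 0.31, adjusted p = 7.8e-05) and Mrc1, the mannose receptor, by 0.54 (SE 0.09, adjusted p = 9.74e-07). Trem2, a lipid-sensing receptor, rose by 0.64 on the probe set used and differed by 0.08 on the other. Tgm2, a transglutaminase, differed by -0.04 (SE 0.03, adjusted p = 0.364).

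Type 2 cytokines rose as well, at low levels and with wide spread between OVA animals. Il13 was at 6.74 to 8.92 (median 7.50) in OVA lungs and at 5.70 to 6.31 (median 6.05) in naive lungs, a difference of 1.62 (SE 0.30, adjusted p = 2.39e-05) in which the groups did not overlap. Il5 was at 5.41 to 7.79 (median 5.93) in OVA lungs, against 5.16 to 5.46 (median 5.27) in naive lungs, a difference of 0.94 (SE 0.26, adjusted p = 0.00393), with 7 of 8 OVA arrays above the highest naive array. Il4 was at 5.76 to 7.86 in OVA lungs and 5.37 to 6.15 in naive lungs, a difference of 0.71 (SE 0.18, adjusted p = 0.00167) that was not called in the 16 arrays alone (adjusted p = 0.0749). The alarmin Il33 was at 11.50 to 12.33 in OVA lungs and 10.88 to 11.53 in naive lungs (difference 0.74, SE 0.12, adjusted p = 1.81e-06). Tslp, the cytokine the study tested, was at 10.15 to 11.02 in OVA lungs and 10.76 to 11.13 in naive lungs, a difference of -0.29 (SE 0.12, adjusted p = 0.0568). That p lay between 0.0244 and 0.205 when arrays were left out one at a time, and was under 0.05 without naive replicate 6 or without OVA replicate 1, 2 or 8. It was 0.0377 with the beta-actin covariate and 0.0493 with array weights.

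Receptors of these cytokines split. The IL-13 decoy receptor Il13ra2 was at 6.78 to 9.22 in OVA lungs and 5.92 to 6.80 in naive lungs, a difference of 1.43 (SE 0.27, adjusted p = 2.41e-05). Il17rb, a receptor subunit for IL-25, rose by 0.79 (SE 0.16, adjusted p = 7.38e-05). The signalling receptor subunits did not pass: Il4ra differed by -0.03, Il13ra1 by 0.02, the TSLP receptor subunits Crlf2 and Il7r by 0.09 and 0.08, and Stat6 by -0.03. In all, 6 of 13 measured members of the type 2 cytokine and receptor list rose and 0 fell, with a median of 0.16. Of the 15 measured genes of the type 2 airway inflammation panel, 12 rose and 0 fell, with a median of 1.39, where 10.9% of all genes rose. The panel was assembled for this model with earlier results of these data known. It repeats members of the other lists, so its count is no independent test.

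Chemokines for eosinophils, monocytes and T helper 2 cells rose. Ccl8, a monocyte and T helper 2 cell attractant in mice, was at 11.69 to 13.23 (median 12.70) in OVA lungs and at 9.12 to 10.79 (median 9.49) in naive lungs, a difference of 2.96 (SE 0.28, adjusted p = 2.91e-16), with no overlap. Eotaxin-1 (Ccl11) was at 9.10 to 11.79 (median 10.29) in OVA lungs and at 7.70 to 9.51 (median 8.00) in naive lungs, a difference of 2.20 (SE 0.31, adjusted p = 3.07e-08). Its groups overlapped through naive replicate 2, which was the highest naive array. Eotaxin-2 (Ccl24) was at 8.24 to 11.19 in OVA lungs and 7.87 to 8.61 in naive lungs (difference 1.38, SE 0.36, adjusted p = 0.00259). Of 8 measured members of the eosinophil and monocyte chemokine list 5 rose, with a median of 0.65. Ccl17 and Ccl22, the Ccr4 ligands of dendritic cells and macrophages, rose too, with differences of 1.87 (adjusted p = 1.45e-06) and 1.60 (adjusted p = 2.76e-05), and with 5 of 8 OVA arrays above the highest naive array for each. The costimulatory genes Cd86 and Cd40 rose by 0.58 and 0.33, and 4 of 8 members of that list rose. Among lymphoid tissue genes, RANK ligand (Tnfsf11) rose by 1.29 (SE 0.29, adjusted p = 0.000338) and the B cell survival factor BAFF (Tnfsf13b) by 0.63 (SE 0.11, adjusted p = 1.01e-05). Cxcl13, the B cell follicle chemokine, was at 9.96 to 12.05 in OVA lungs and 9.21 to 11.95 in naive lungs (difference 0.96, SE 0.35, adjusted p = 0.0361), and it was not called when any 1 of 9 arrays was left out (adjusted p = 0.0556 to 0.0991; OVA replicates 3, 4, 5, 7 and 8, naive replicates 1, 6, 7 and 8).

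Of the 5 measured eosinophil markers 1 was called at 6 h, and 2 in the 16 arrays alone. Ccr3, the eotaxin receptor, was at 4.26 to 5.25 (median 4.63) in OVA lungs and at 4.01 to 4.71 (median 4.33) in naive lungs, a difference of 0.31 (SE 0.29, adjusted p = 0.475). Prg2, major basic protein, had medians of 6.05 in OVA lungs and 5.54 in naive lungs (difference 0.62, SE 0.30, adjusted p = 0.125, and 0.04 in the 16 arrays alone), and Epx, eosinophil peroxidase, differed by 0.34 (SE 0.32, adjusted p = 0.469). Alox15, a lipoxygenase that macrophages and epithelium also express, was the one called in the fit over all groups, at 8.81 to 11.65 in OVA lungs, against 7.32 to 9.51 in naive lungs (difference 2.03, SE 0.45, adjusted p = 0.000341).

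At 24 h after saline, in other mice, 4 of the 5 eosinophil markers rose in OVA lungs, where 30.3% of all genes were called (14% higher and 16.4% lower). Ccr3 was at 6.28 to 7.69 in OVA lungs and 4.06 to 4.64 in naive lungs at 24 h, and the difference at 6 h was smaller than that at 24 h by 2.33 (SE 0.42, adjusted p = 0.00219). The change of Ccr3 was called in all 16 fits that left out 1 array, and in the other alternatives that tested it. The fit without the dimmest genes did not hold Ccr3. The arrays left out were those taken at 6 h, so dependence on single arrays at 24 h was not tested. Prg2 was at 6.65 to 9.15 in OVA lungs and 5.10 to 5.53 in naive lungs at 24 h. Its difference at 6 h fell short by 1.98, at the threshold itself (adjusted p = 0.05), and was called in 3 of the 16 fits that left out 1 array (adjusted p = 0.0149 to 0.151). Rab44, a GTPase of granulocytes and mast cells, was the other gene called (difference -0.48 at 6 h and 0.43 at 24 h, adjusted p = 0.00881), with adjusted p = 0.0531 without naive replicate 4. These 3 genes, 0.0222% of 13494, are all that limma called, while 693 genes (5.14%) had an unadjusted p under 0.05. For the change of Epx, -1.90, the adjusted p was 0.103. Ccl11, which had risen at both times, did not pass this test (difference -1.33, adjusted p = 0.84). The beta-actin difference was higher at 6 h (2.45 in OVA and 2.42 in naive) than at 24 h (1.27 in OVA and 1.37 in naive), and its part in these results was not tested beyond a fit with it as a covariate, in which Ccr3 and Rab44 stayed called and Prg2 had an adjusted p of 0.0532.

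**Figure D3:**
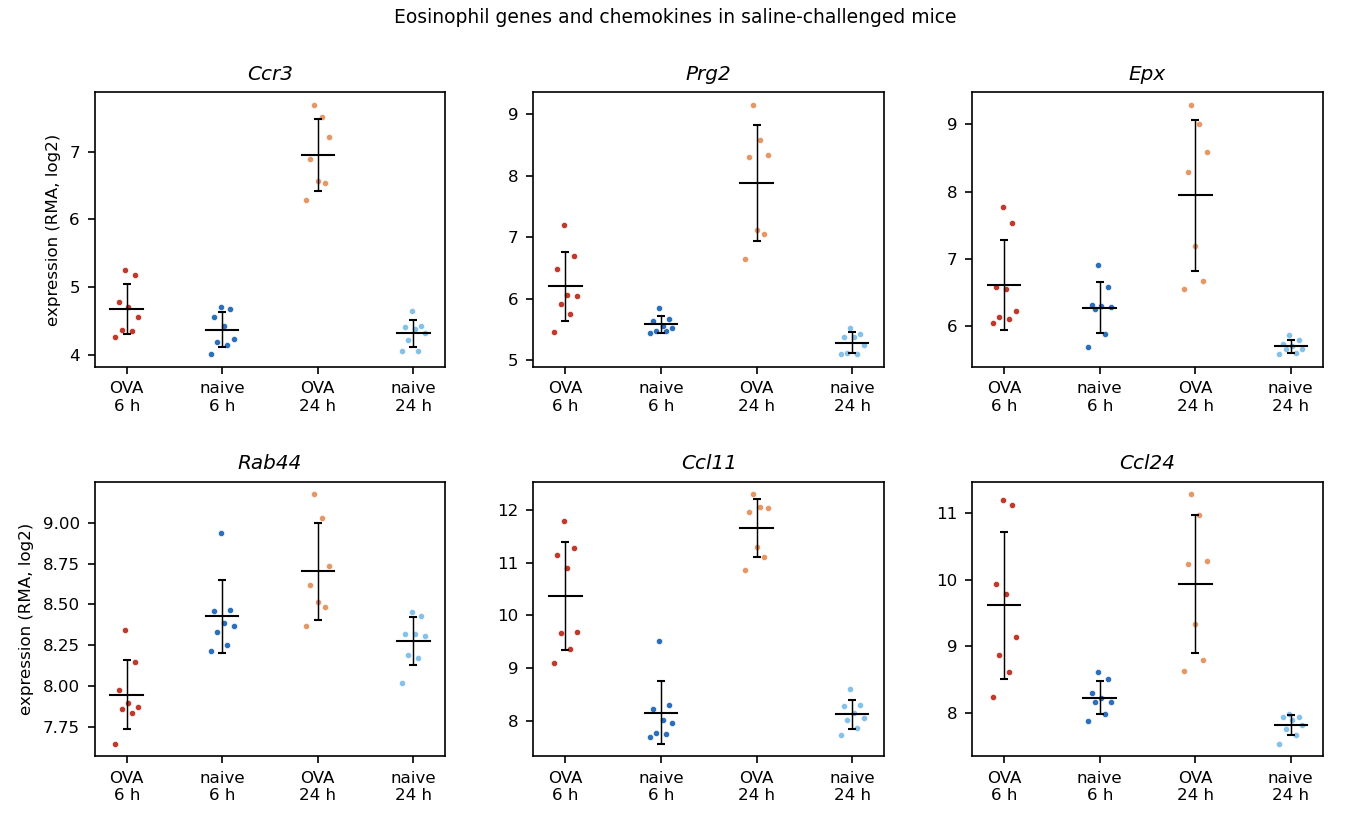
RMA expression (log2, vertical axis) of Ccr3, Prg2, Epx, Rab44, Ccl11 and Ccl24 in saline-challenged lungs, in the order OVA 6 h, naive 6 h, OVA 24 h and naive 24 h, 1 point per array with mean and SD bars (n = 8, 8, 7 and 8). Ccr3 in OVA lungs is at 4.26 to 5.25 at 6 h and at 6.28 to 7.69 at 24 h, whereas in Ccl11 6 of 8 OVA arrays at 6 h are above the highest naive array.

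Antibody genes rose. Ighm, the IgM heavy chain, was at 13.56 to 14.28 (median 14.05) in OVA lungs and at 8.80 to 11.55 (median 10.33) in naive lungs, a difference of 3.67 (SE 0.33, adjusted p = 1.96e-17). Its 5 probe sets gave differences of 0.02 to 4.69, with 4 of them at 3.67 or above. Cross-hybridization of these probe sets with other antibody genes was not tested, and Ighg1, Ighg2b, Ighe and Igkc were not among the measured genes. Jchain, the joining chain of secreted IgM and IgA, was at 11.23 to 13.10 in OVA lungs and 9.61 to 11.16 in naive lungs (difference 2.43, SE 0.27, adjusted p = 8.06e-13). Mzb1, an antibody-secretion cofactor, rose by 1.88 (SE 0.30, adjusted p = 9.92e-07) and Derl3, an ER degradation factor of plasma cells, by 1.37 (SE 0.26, adjusted p = 2.06e-05). In these 4 genes no OVA array reached down to a naive array. Of 10 measured plasma cell and antibody genes 8 rose and 1 fell, with a median of 1.07. Without naive replicate 6 the counts were 7 and 2. With all arrays the 1 that fell was Prdm1, the plasma cell regulator that other cells express too, by 0.38 (SE 0.09, adjusted p = 0.00103). Of the 8 B cell markers 0 were called (median 0.08; the B cell co-receptor component Cd79b differed by 0.11).

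Among T cell markers 4 of 14 rose and 0 fell, with a median of 0.29, where 10.9% of all genes rose. The 4 were Ctla4 (0.74, SE 0.13), Icos (0.94, SE 0.20), Il2ra (0.68, SE 0.17) and Foxp3 (0.51, SE 0.13). All 4 mark activated or regulatory T cells, while the pan-T gene Cd3e differed by 0.07 (SE 0.11) and Cd4 by 0.28 (SE 0.14), neither called. At 24 h 11 of the 14 were called higher, where 14% of all genes were. The difference between the times was called for 0 of the 14. Dendritic cell markers rose in 8 of 11, with Itgax (CD11c, also on alveolar macrophages) at 11.72 to 12.52 in OVA lungs and 10.93 to 11.31 in naive lungs (difference 1.05, SE 0.15, adjusted p = 1.71e-08). Batf3, a factor of cross-presenting dendritic cells and of activated T cells, was at 9.44 to 10.93 in OVA lungs and 8.77 to 9.08 in naive lungs (difference 1.32, SE 0.19, adjusted p = 8.88e-08). Neither gene's groups overlapped. In the 16 arrays alone 4 of the 11 dendritic cell markers were called.

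Complement C1q genes of monocyte-derived and interstitial macrophages rose, C1qc by 0.91 (SE 0.15, adjusted p = 1.63e-06) and C1qb by 0.40 (SE 0.07, adjusted p = 1.37e-05), among 5 of 9 markers that rose. The fractalkine receptor Cx3cr1 was the 1 that fell, by 0.48 (SE 0.14, adjusted p = 0.00685). Alveolar macrophage markers did not move together. Fabp1 was at 8.65 to 10.86 (median 10.14) in OVA lungs and at 10.95 to 11.41 (median 11.06) in naive lungs, a difference of -1.24 (SE 0.31, adjusted p = 0.00132) with all 8 OVA arrays below the lowest naive array. Mertk fell by 0.36, Krt79 rose by 0.87 (SE 0.20, adjusted p = 0.00057), and Marco and Pparg differed by -0.02 and 0.01. Mast cell proteases of the mucosal type rose, Mcpt2 to 5.16 to 9.08 in OVA lungs, against at most 5.37 in naive lungs (difference 2.25, SE 0.38, adjusted p = 3.55e-06), and Mcpt1 by 1.12 (SE 0.31, adjusted p = 0.00388, and 0.0706 in the 16 arrays alone). The connective tissue type Mcpt4 differed by 0.02 and the basophil protease Mcpt8 by 0.31 (adjusted p = 0.301), and 3 of 12 basophil and mast cell markers rose in all.

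**Figure D4:**
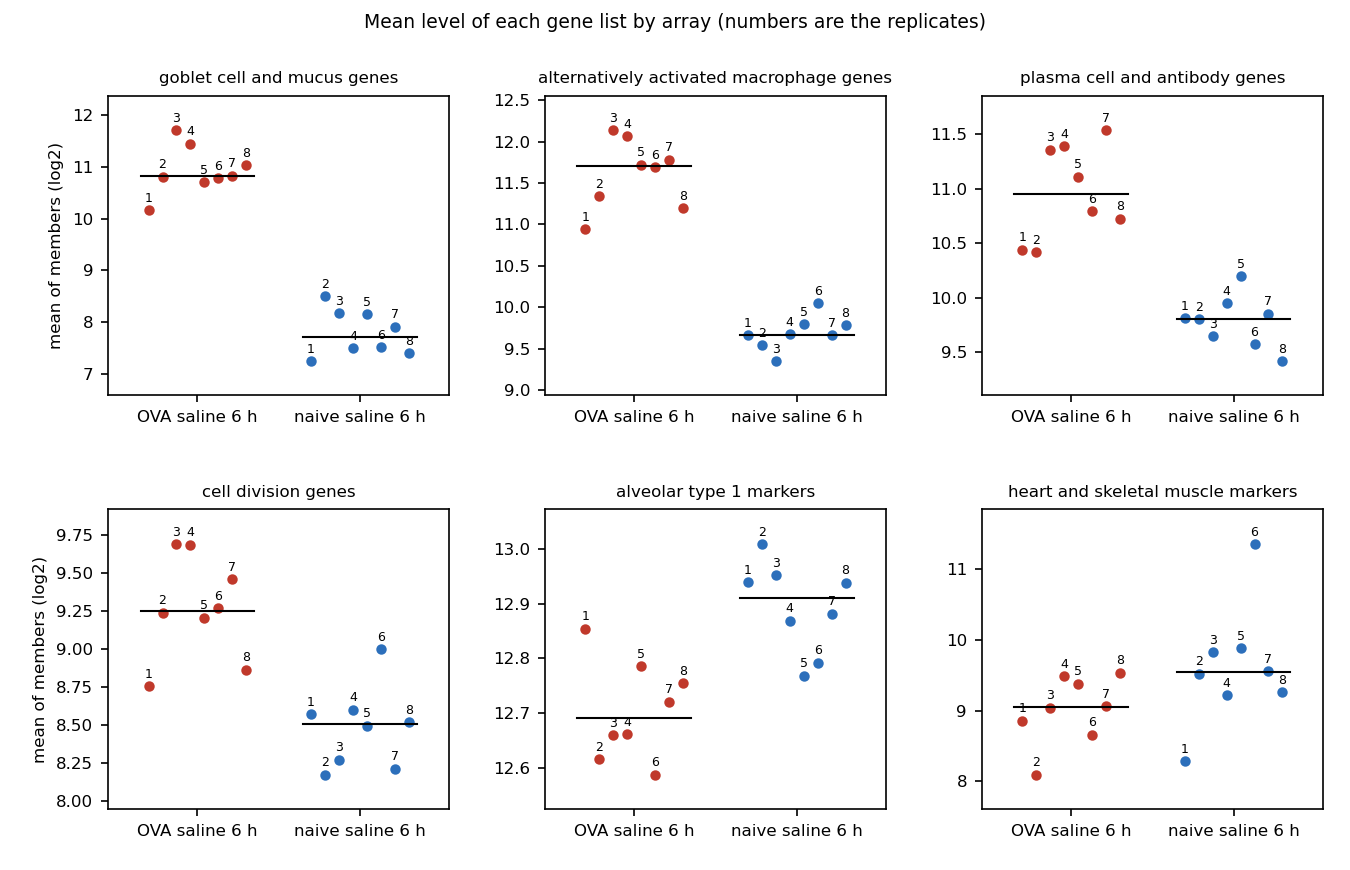
Mean log2 level of the measured members of 6 gene lists (vertical axis) in each OVA saline 6 h array (red, left) and naive saline 6 h array (blue, right), 8 arrays a group, numbered by replicate, with the median as a line. OVA replicates 3 and 4 are at the top of the goblet cell, macrophage and cell division lists and replicate 1 at the bottom, and naive replicate 6 is at 11.36 in the muscle list.

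The OVA animals differed among themselves in extent. The mean goblet cell level was 11.70 and 11.44 in OVA replicates 3 and 4 and 10.16 in OVA replicate 1, against 7.26 to 8.51 in naive lungs. In alternatively activated macrophage genes the same replicates were at 12.14, 12.07 and 10.95, against 9.35 to 10.05 in naive lungs. Plasma cell and antibody genes were highest in OVA replicates 7, 4 and 3 (11.54, 11.39 and 11.36) and lowest in OVA replicates 2 and 1 (10.42 and 10.44), against 9.42 to 10.19 in naive lungs. Every OVA animal lay above every naive animal on these 3 levels. On the cell division genes the groups overlapped: OVA replicate 1 was at 8.76 and replicate 8 at 8.86, both below naive replicate 6, the highest of the naive arrays.

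Cell division genes rose in 11 of 12 measured members, with a median of 0.81. The mitotic kinase Cdk1 was at 9.21 to 10.75 (median 10.15) in OVA lungs and at 8.29 to 9.42 (median 8.95) in naive lungs, a difference of 1.29 (SE 0.21, adjusted p = 1.86e-06). Aurkb, the chromosomal passenger kinase, was at 6.84 to 8.21 in OVA lungs and 6.07 to 6.93 in naive lungs (difference 1.19, SE 0.21, adjusted p = 6.66e-06). For both, 7 of 8 OVA arrays lay above the highest naive array. Ccna2 and Ccnb2, the cyclins of S phase and mitosis, rose as well, Ccna2 by 0.98 (SE 0.17, adjusted p = 1.01e-05). The replication helicase genes Mcm2, Mcm5 and Mcm6 rose by 0.50, 0.62 and 0.55.

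Neutrophil and acute inflammation genes moved in both directions, 4 of 16 up and 4 down, where 10.9% of all genes rose and 12.6% fell. The acute phase protein Saa3 was at 12.47 to 13.77 in OVA lungs and 10.87 to 13.74 in naive lungs (difference 1.02, SE 0.27, adjusted p = 0.00322). The siderophore binder Lcn2 rose by 0.43 (SE 0.11, adjusted p = 0.00232, and 0.0555 in the 16 arrays alone), and the other rises were Cxcl5 (1.27, adjusted p = 0.0487) and P-selectin, Selp (0.55, adjusted p = 0.0297). Of the 4 that fell, Ngp, a granule protein of neutrophil precursors, was at 6.65 to 8.13 (median 7.65) in OVA lungs and at 8.18 to 9.87 (median 8.83) in naive lungs, a difference of -1.40 (SE 0.38, adjusted p = 0.00362) without overlap. Mmp8 fell by 0.72 (SE 0.23, adjusted p = 0.0166, and 0.0541 without naive replicate 4), and the cytosolic proteins S100a8 and S100a9 by 0.40 and 0.30. The granule protein Ltf differed by 1.01 (adjusted p = 0.11). Without OVA replicate 3 the counts were 2 up and 2 down, and in the 16 arrays alone 1 up and 3 down. Of all 13494 genes, 927 were called higher and 743 lower in the 16 arrays alone, and 1089 higher and 1087 lower without OVA replicate 3. Of 14 interferon response genes 4 rose: the Cxcr3 ligands Cxcl9 (1.85, SE 0.40, adjusted p = 0.00028), Cxcl10 (1.02, SE 0.33, adjusted p = 0.017) and Cxcl11 (1.15, SE 0.34, adjusted p = 0.0085, 0.0538 without OVA replicate 4 and 0.0833 in the 16 arrays alone), and Mx1 (0.67, SE 0.19, adjusted p = 0.00407). In the 16 arrays alone 2 of the 14 were called higher. Ifit2 fell by 0.43 (SE 0.12, adjusted p = 0.00389), and Irf7, Rsad2 and Oasl2 differed by -0.01, 0.01 and 0.02. The 2 probe sets of Cxcl9 gave 1.85 and 0.93.

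Falls were small in size. The largest was Pon1, paraoxonase 1, a lipid hydrolase that club cells express: it was at 8.73 to 11.39 (median 10.27) in OVA lungs and at 11.58 to 12.32 (median 11.92) in naive lungs, a difference of -1.67 (SE 0.29, adjusted p = 4.16e-06), or 3.18-fold lower. Every OVA array lay below every naive array, and the OVA arrays spanned over 2.5 units. Scara5, a ferritin receptor of fibroblasts, was at 6.89 to 9.07 in OVA lungs and 8.78 to 10.34 in naive lungs (difference -1.58, SE 0.30, adjusted p = 3.19e-05). Klk1b8, a kallikrein, fell by 1.12 (SE 0.19, adjusted p = 5.68e-06), the neuronal calcium sensor Hpcal4 by 1.09 (SE 0.29, adjusted p = 0.0032) and the glutamate receptor subunit Gria1 by 0.92 (SE 0.22, adjusted p = 0.000821). Cd209f, a relative of Cd209e, fell by 0.95 (SE 0.22, adjusted p = 0.000536), whereas Cd209e was at 6.73 to 9.23 in OVA lungs and 4.47 to 5.28 in naive lungs (difference 3.45, SE 0.35, adjusted p = 3.16e-14). Scin, scinderin, an actin-severing protein, rose by 3.55 (SE 0.35, adjusted p = 3.49e-15).

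Markers of the alveolar wall were lower by small amounts. Of 9 measured alveolar type 1 markers 8 fell and 0 rose, with a median of -0.19, where 12.6% of all genes fell. Emp2, a tetraspan membrane protein, was at 13.10 to 13.29 in OVA lungs and 13.23 to 13.48 in naive lungs (difference -0.19, SE 0.04, adjusted p = 0.000205). Clic5 fell by 0.26 (SE 0.06, adjusted p = 0.00025, and 0.13 in the 16 arrays alone), Rtkn2 by 0.38 (SE 0.10, adjusted p = 0.00289) and Hopx, a type 1 cell transcription cofactor, by 0.19 (SE 0.05, adjusted p = 0.00392). The count was 6 without OVA replicate 3 and 4 in the 16 arrays alone. Over all genes the calls lower also dropped, from 1699 to 1087 and 743 in these fits. Endothelial markers fell in 4 of 13, among them Tek (-0.31, SE 0.06, adjusted p = 8.8e-05), Kdr (-0.40, SE 0.11, adjusted p = 0.00296) and Cdh5 (-0.34, SE 0.10, adjusted p = 0.0113). Without naive replicate 6 the count was 6, in a fit that called 2110 of all genes lower. The count was 3 without OVA replicate 3 and 3 in the 16 arrays alone. Type 2 cell markers split, 3 of 9 up and 3 down, and club cell markers were 1 up and 3 down of 8. Of the 2 lists, 1 and 0 members were called in the 16 arrays alone.

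Markers of neighbouring tissues were checked beside these. In the heart and skeletal muscle list 0 of 17 members were called, with a median of -0.70, and its mean level was 8.10 to 9.54 in OVA lungs and 8.29 to 11.36 in naive lungs, naive replicate 6 being the highest. In the fat list 0 of 6 were called (median -0.41) and in the gullet list 0 of 8 (median 0.10). Smooth muscle markers rose in 3 of 8, among them Acta2 by 0.34 (SE 0.08, adjusted p = 0.000621) on the probe set used, and its other probe set differed by 0.13. ER folding and secretory genes rose in 9 of 13 (median 0.21), among them Sdf2l1, a chaperone partner, at 0.77 (SE 0.20), Pdia4, a disulfide isomerase, at 0.59 (SE 0.13), Creld2 at 0.46 (SE 0.11) and Manf at 0.40 (SE 0.10), with 5 of 13 called without OVA replicate 3 and 4 of 13 in the 16 arrays alone. Other lists were near the share of all genes: collagen and matrix genes were 2 up and 3 down of 14, clock genes 2 up and 3 down of 15, immediate early genes 2 up and 1 down of 12, glucocorticoid responsive genes 1 up and 1 down of 8, ciliated cell markers 2 up and 0 down of 11, and NK and cytotoxic cell markers 0 up and 2 down of 11. Single arrays moved some of these counts: without OVA replicate 3 the clock genes were 1 up and 1 down and the ciliated and NK lists had 0 called, and without naive replicate 6 the collagen list was 5 up and 3 down and the immediate early list 2 up and 3 down. The calls over all genes moved too. They were 1089 higher and 1087 lower without OVA replicate 3, and 1626 higher and 2110 lower without naive replicate 6.

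The sensitization difference was also measured in the other mice. Of the 3176 genes called at 6 h and the 4094 called at 24 h, 2311 were called at both, 72.8% of the first and 56.4% of the second, and 2310 of them had the same sign. The Pearson correlation of the 2 differences across the 13494 genes, which are not independent replicates, was 0.897. With buffer (the MSA challenge) at 6 h 4536 genes were called (15.7% higher and 18% lower). Of them 1715 were also called after saline (54.0% of the saline calls and 37.8% of the buffer calls), 1699 with the same sign. The correlation across genes was 0.772. The 3 pairs of groups shared no arrays. Goblet cell genes rose in 16 of 16 at 24 h and 15 of 16 after buffer, with medians of 3.15 and 2.50, beside 3.14 after saline at 6 h. For Clca1 the 3 differences were 8.31, 7.50 and 8.49, and for Chil4 they were 6.76, 6.71 and 6.33 (saline 6 h, saline 24 h and buffer 6 h). T cell markers rose in 4, 11 and 4 of 14.

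**Figure D5:**
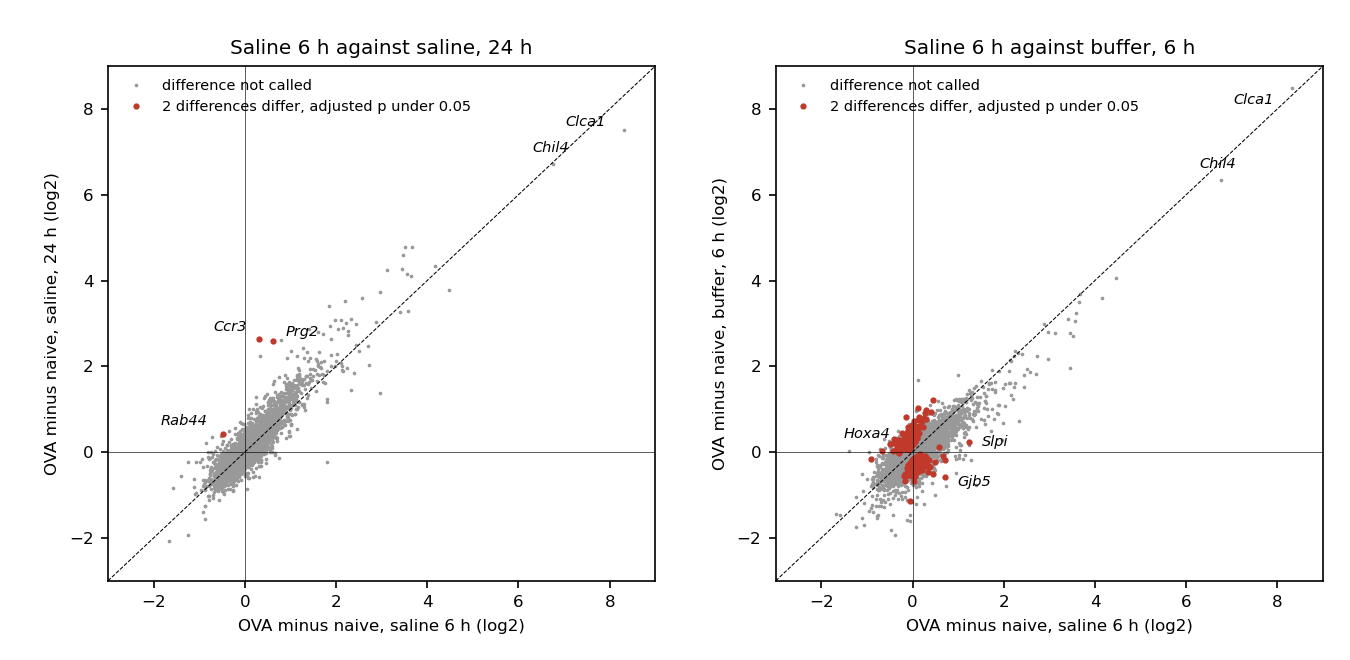
OVA minus naive difference of each of 13494 genes (log2) after saline at 6 h (horizontal axis) against that after saline at 24 h (left, vertical axis) and after buffer at 6 h (right, vertical axis), with the line of equality dashed. Red points are genes whose 2 differences differ at an adjusted p under 0.05, 3 at left and 353 at right. Clca1 and Chil4 lie near the line in both panels, and Ccr3 and Prg2 lie above it at left.

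Between saline and buffer (the MSA challenge) at 6 h the sensitization difference itself differed in 353 genes (2.62%). Of these, 172 were more positive after saline (1.27%) and 181 more negative (1.34%). The count of 353 was not stable. It was 1 when the 4 groups were fitted alone, 34 with array weights and 102 with the beta-actin covariate. With 1 of the 16 saline arrays left out, it ran from 114 (without OVA replicate 4) to 650 (without OVA replicate 2). The antiprotease Slpi was at 12.06 to 13.76 in OVA and 11.33 to 12.53 in naive lungs after saline, and at 12.32 to 13.73 in OVA and 12.14 to 13.39 in naive lungs after buffer. The saline groups were further apart than the buffer groups. The difference was larger after saline by 0.99 (SE 0.27, adjusted p = 0.0247). Ptgs2, cyclooxygenase 2, was at 9.30 to 10.18 in OVA and 8.66 to 9.58 in naive lungs after saline and at 9.17 to 9.71 in OVA and 8.91 to 9.99 in naive lungs after buffer (0.89 larger, SE 0.24, adjusted p = 0.0236). Gjb5, a gap junction connexin of stratified epithelia, was 1.30 more positive after saline (SE 0.29, adjusted p = 0.00528), with a difference of 0.71 after saline (adjusted p = 0.115 in the 16 arrays alone) and -0.59 after buffer. Hoxa4, a homeobox gene, had a value of -0.96 (SE 0.17, adjusted p = 0.000488), with a difference of -0.15 after saline and 0.81 after buffer. Arrays with gullet keratins numbered 0 of the 16 saline arrays, 1 in the OVA buffer group and 2 in the naive buffer group, and without them 387 genes were called. Of the 10 genes named for this difference, 5 were no longer called without them: Ptgs2 (0.82, adjusted p = 0.0596), H2ac19 (0.68, adjusted p = 0.302), Pde2a (-0.80, adjusted p = 0.0624), Angpt4 (-0.67, adjusted p = 0.129) and Ajap1 (-0.63, adjusted p = 0.117).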

How the data were processed

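Lung RNA of 149 mice was hybridized to Affymetrix mouse arrays. The deposited values are on the log2 scale and came from RMA (version not given), as the submitters' processing notes name it; RMA corrects background, normalizes arrays to each other and summarizes probes, and tends to compress differences of dim genes. Sample groups came from the labels, and animals of a group are separate mice. Of 26166 probe sets, 22892 named 1 gene through the platform annotation; 260 named several and 3014 none, and these were not used here. Each of 13494 genes was represented by its brightest probe set, judged by the average of the 149 arrays.

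One mean per group was fitted over all 20 groups with limma 3.58.1 in R 4.3.3 (129 residual degrees of freedom), with Benjamini-Hochberg adjustment over all genes and a threshold of 0.05. In 5 comparisons of this kind p-values were adjusted within each. The named genes were the 12 largest rises and 8 largest falls that passed, the 4 members of each list with the smallest p, the type 2 panel, and up to 5 genes in each direction for each test of a difference. Predicted and unnamed genes and antibody variable and joining segments were skipped in choosing the rises, the falls and the genes for tests of a difference. Members named beyond these were chosen after their values were seen. The gene lists and the comparison were chosen with earlier results of these data known. On simulated arrays of this design, 40%, 94%, 100% and 100% of 50 genes were recovered at changes of 0.25, 0.5, 1 and 2 on the log2 scale. There 8 unchanged genes were called (0.06%). Far fewer genes were changed than the 23.5% called here, so these rates need not hold for this comparison. Replicate numbers did not pair the animals: same-numbered OVA and naive arrays correlated between -0.508 and 0.194 in their deviations from the group means.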

Additional observations from a re-analysis of the deposited data

Results flagged for a closer look

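Single arrays stood apart from the rest of their group in 21 of 296 groups of 8 checked by Dixon's criterion, which flags about 1 group in 20 by chance. In naive lungs, replicate 2 was the high array for Clca1 (7.80), Ccl11 (9.51), Ccl22 (10.48), Cxcl10 (10.71), Cxcl11 (7.43), Ifit2 (10.69), Ptgs2 (9.58) and Selp (10.80). Naive replicate 6, the array with skeletal muscle RNA, was the high array for Myh1 (12.94), Ccl8 (10.79), Chit1 (6.64), Mcm2 (10.43), Mcm6 (11.68), Hoxa4 (9.58) and Ajap1 (7.94), and the low array for Mertk (10.60). Naive replicate 5 was high for Capn9 (6.14) and Jchain (11.16), and naive replicate 4 for Rab44 (8.94). In OVA lungs, replicate 8 was high for Marco (8.10) and replicate 1 for S100a8 (13.12).

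The sensitization difference itself differed between conditions in the following named genes. Between 6 h and 24 h after saline, the values (6 h minus 24 h) were -2.33 for Ccr3, -1.98 for Prg2 and -0.90 for Rab44. Between saline and buffer at 6 h, they were more positive after saline for Gjb5 (1.30), H2ac19 (1.09), Slpi (0.99), Vnn1 (0.96) and Ptgs2 (0.89). They were more negative after saline for Hoxa4 (-0.96), Sbk1 (-0.92), Pde2a (-0.78), Angpt4 (-0.76) and Ajap1 (-0.71). Angpt4 had a second probe set, on which OVA and naive lungs differed by -0.06 after saline, against -0.92 on the probe set used.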

How the results depend on the processing

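The 3176 calls between OVA and naive lungs became 5469 with every probe set on its own, 2033 without the dimmest 40% of genes, 1670 with the compared groups alone, 2112 with the compared groups alone and the beta-actin covariate (chosen after seeing the data), and 1016 with the replicate block in the compared groups alone; leaving out 1 array gave 2176 (without OVA replicate 3) to 3736 (without naive replicate 6). The higher share was 46.5% of calls, and 51.6% after quantile normalization. For the difference between 6 h and 24 h the 3 calls became 0 without the dimmest 40% of genes (693 genes had an unadjusted p under 0.05 in limma over all genes) and 10 with array weights, and 1 (without naive replicate 4) to 7 (without OVA replicate 4) with 1 array left out. For saline against buffer the 353 calls became 156 with the mean of all probe sets, 714 with every probe set, 34 with array weights, 102 with the beta-actin covariate, 1 with the compared groups alone and 0 with the replicate block, and 114 to 650 with 1 array left out; the more positive share was 48.7%, against 69.9% with the mean of probe sets and 37.4% after quantile normalization. The beta-actin difference was -0.0437 to 0.171 with 1 array left out. In every result only the 16 saline arrays at 6 h were left out 1 at a time. Themis (-0.0701 to 0.147) and H2ac19 (-0.250 to 0.150) changed sign between fits that left out 1 array. Of 122 called genes among 161 named, 106 stayed called without any 1 array and 31 were lost in the compared groups alone and 51 under the block. All 105 medians of gene lists kept their direction. They are medians of 35 lists and do not cover every setting above. That of the alveolar type 2 markers was near 0 (-6.25e-05), so its direction says little. The causes were not tested. Animals share a number only (2 of 8 same-numbered pairs correlated over 0.1, and 0 best with their own number), so the block is no pairing. The small number of arrays and RMA's compression of dim probe sets limit what can be seen of low genes such as Ccr3 and Il5.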

Other observations

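Several gene families were looked at after their values were seen, and their counts support nothing. Of 7 Cd209 lectin genes, 3 rose and 2 fell. Cd209e has been given; Cd209d was at 7.88 to 9.11 in OVA lungs and 7.11 to 7.66 in naive lungs (difference 0.97, adjusted p = 1.21e-05), with no overlap, and Cd209a rose by 0.52 (adjusted p = 0.0203). Cd209g, like Cd209f, was lower, by -0.80 (adjusted p = 0.00237), while Cd209b and Cd209c differed by 0.03 and 0.06. Acidic chitinase, Chia1, which degrades chitin, was at 13.43 to 14.06 in OVA lungs and 11.67 to 12.56 in naive lungs (difference 1.59, adjusted p = 2.26e-11), with no overlap. Chil1 rose by 0.32 (adjusted p = 3.16e-06), and the chitotriosidase Chit1 differed by -0.03 (adjusted p = 0.919).

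Other families and single genes, chosen in the same way, are given as values, beside 10.9% of all genes higher and 12.6% lower. Of 8 lipoxygenase genes and their partner, 2 rose and 1 fell: Alox12e was at 7.87 to 10.21 in OVA lungs and 6.55 to 7.18 in naive lungs (difference 2.15, adjusted p = 2.26e-13), with no overlap, and Alox12 fell by 0.58 (adjusted p = 0.000338). Of 13 claudins, the tight junction proteins, 5 rose, 0 fell and 8 were not called. Among the 5 were Cldn22 (2.32, adjusted p = 1.08e-09) and Cldn1 (1.07, adjusted p = 5.45e-09). The glucose transporter Slc5a1 rose by 2.22 (adjusted p = 1.99e-10) and the antimicrobial lectin Reg3g by 2.97 (adjusted p = 0.00103). Of 9 carboxylesterases 0 rose, 6 were not called and 3 fell, among them Ces1g (-0.79, adjusted p = 0.000423).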
